A study of Mus musculus with 6 samples.

Results

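The UDP-glucuronosyltransferases and the cytosolic sulfotransferases were examined in the liver RNA-seq of FGF19-treated mice. Members were taken by gene symbol: every listed gene whose symbol begins with Ugt1a, Ugt2a, Ugt2b or Ugt3a, or with Sult and a digit. This gave 38 of the 23284 genes listed, 20 of them glucuronosyltransferases (UGT) and 18 sulfotransferases (SULT). Of these, 21 (15 UGT and 6 SULT) had a mean of 0.5 CPM (read counts relative to the size of a library) or more over the 6 libraries and are described, and the same 21 passed the filter on low counts of the test. Total RNA was from the liver of C57BL/6 mice aged 8 weeks, fasted overnight and kept fasted while they received vehicle (Vehicle, n = 3) or FGF19 at 1 mg/kg (FGF19, n = 3) for 6 h. FGF19 is the human counterpart of mouse FGF15, a hormone that the gut releases after a meal. The methods describe 1 library per mouse, and the animal section of the methods speaks of male mice without naming this experiment. The comparison asks how the RNA of each conjugating enzyme differed after FGF19.

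UGT enzymes sit in the endoplasmic reticulum and join glucuronic acid from UDP-glucuronic acid to bilirubin, steroids, bile acids, phenols and drugs. SULT enzymes sit in the cytosol and move a sulfonate group from the donor PAPS to many of the same kinds of molecule. Both families are major conjugating enzymes of the hepatocyte, and their products are more soluble in water and leave by bile or urine.

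The 5 measured Ugt1a genes lie in 1 complex on chromosome 1 (mouse build mm9). Each has coding sequence of its own at the 5′ end, which encodes the part of the enzyme that binds the substrate, and all join the same later exons, of which the first lies at chr1:90111619-90111750. The last 40 bases of the own exon that joins the common one (lower case) and the first 20 bases of the common exon (capitals) are shown 5′ to 3′ on the plus strand, because only reads that touch the lower-case side tell the genes apart.
Ugt1a9: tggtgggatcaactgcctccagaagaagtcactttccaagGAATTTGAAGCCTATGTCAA
Ugt1a6b: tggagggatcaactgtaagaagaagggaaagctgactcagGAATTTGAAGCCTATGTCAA
Ugt1a6a: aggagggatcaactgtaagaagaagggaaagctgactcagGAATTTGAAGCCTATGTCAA
Ugt1a5: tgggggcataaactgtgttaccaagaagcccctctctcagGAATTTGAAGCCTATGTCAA
Ugt1a1: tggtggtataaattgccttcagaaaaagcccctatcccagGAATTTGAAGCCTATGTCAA
The capitals are identical in all 5, and the own ends of Ugt1a6a and Ugt1a6b are nearly so. Reads lying in exons that several genes share were left out of the counts, so that the value of a Ugt1a gene rests on at most 892 (Ugt1a5) to 986 (Ugt1a6a) exon positions that no other gene shares, less where their sequence is repeated elsewhere. Levels between genes are therefore given per kilobase of such unshared exon.

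Ugt2b5 and Ugt2b38, on chromosome 5, are a second pair that reads separate in part. Of the 1040 windows of 100 bases in the coding sequence of Ugt2b5, 433 are also present in Ugt2b38, 19 in Ugt2b37 and 0 in Ugt2b36. One identical stretch lies at chr5:87569056-87569115 in Ugt2b5 and at chr5:87852921-87852980 in Ugt2b38, on the minus strand in both, and is shown as an example of sequence that does not tell the genes apart.
Ugt2b5 and Ugt2b38: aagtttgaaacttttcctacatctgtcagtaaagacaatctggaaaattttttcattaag
Reads aligned to several places were not counted. Windows were also read over all exon positions that no other gene shares, coding or not. Of these, 33.1% in Ugt2b5 and in Ugt2b38, 54.7% in Ugt3a1, 27.8% in Ugt1a6a and 27.3% in Ugt1a6b had an exact copy elsewhere in the genome. In Ugt2b36, Ugt2b1, Ugt3a2, Ugt1a1, Ugt1a9, Sult1b1 and Sult1d1 no window had one, and in Ugt2a3, Ugt2b34, Ugt2b35 and Sult1a1 between 0.487% (Ugt2b34) and 3.86% (Sult1a1) had one.

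In Vehicle livers the most abundant members per kilobase were Ugt2b5 (435 ± 38.6 CPM per kilobase, SD, n = 3), Sult1a1 (336 ± 17.4) and Ugt2b36 (318 ± 7.12). The intervals of mean ± SD of Sult1a1 and Ugt2b36 overlapped. Ugt1a1, the enzyme that conjugates bilirubin, came next at 198 ± 17.4 CPM per kilobase. Ugt3a2 (154 ± 15.7), Ugt2b1 (152 ± 17.1) and Ugt2b34 (142 ± 29.2) followed and were not separated by their spread, and Ugt2a3 (117 ± 14.5) lay within 1 SD of Ugt2b34 as well. Below these were Ugt2b35 (65.3 ± 15.8), Sult1d1 (56.7 ± 11.0), Ugt1a9 (44.7 ± 10.1), Ugt1a6b (40.4 ± 1.42), Ugt1a6a (33.9 ± 2.31), Ugt3a1 (25.2 ± 1.87) and Ugt1a5 (13.3 ± 5.78). Sult1b1 stood at 9.33 ± 0.577 CPM per kilobase, and the remaining 5 members, Sult5a1, Ugt2b38, Sult2a7, Sult1c2 and Ugt2b37, at 6.31 to 1.51. The length used still includes windows with a copy elsewhere, from which reads aligned to several places were not counted. Levels of Ugt3a1 (54.7% of windows), Ugt2b5 and Ugt2b38 (33.1% each), Ugt1a6a (27.8%) and Ugt1a6b (27.3%) can therefore be too low. The order of these genes among the members is not settled. In FGF19 livers Sult1a1 was the highest member on this scale at 455 ± 21.3 CPM per kilobase, ahead of Ugt2b5 (314 ± 6.92) and Ugt2b36 (255 ± 10.7). In Sult1a1 3.86% of the windows had a copy elsewhere, fewer than in Ugt2b5, so that its place above Ugt2b5 is not settled. With the whole exon length given in the files in place of the unshared length, Ugt1a1 stood at 56.0 CPM per kilobase in Vehicle livers and moved from rank 4 to rank 10 of the 21.

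After FGF19, 5 of the 21 members were lower (Ugt2a3, Sult1d1, Sult1b1, Ugt2b5 and Ugt2b36) and 1 was higher (Sult1a1) at an adjusted p under 0.05 (edgeR's quasi-likelihood test, adjusted by Benjamini-Hochberg over the 12559 genes tested). Among all genes tested, 2.84% were lower and 4.56% were higher by the same rule. The same 5 and 1 members passed the study's threshold of p under 0.01, which 4.98% of all genes passed as lower and 6.2% as higher. In 10 members every FGF19 mouse was below every Vehicle mouse, and in 1 member every FGF19 mouse was above, where 13.8% and 14.5% of all genes tested did so. The fitted log2 fold change was below 0 in 19 of the 21, with a median of -0.319 against -0.00076 for all genes tested. For a single value, the smallest two-sided p of an exact permutation test of 3 against 3 mice is 0.1, so that calls rest on the fit across all genes. RNA of whole liver does not show whether a lower value means fewer cells of a type or less RNA per cell.

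**Figure D1:**
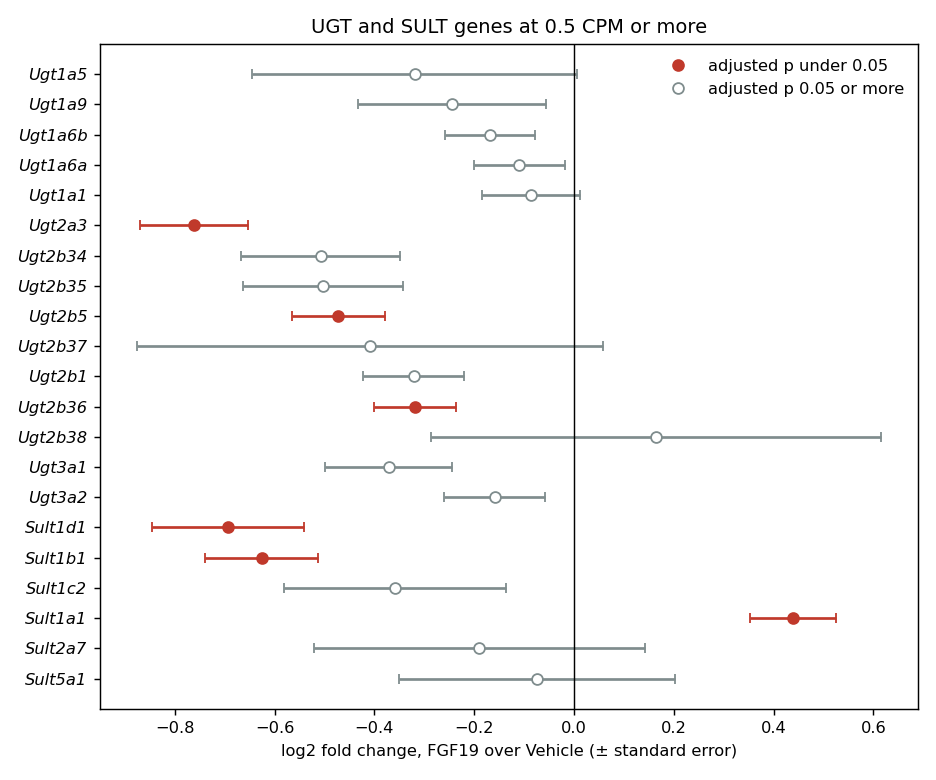
Log2 fold change of FGF19 over Vehicle for the 21 members, with the standard error of the fit as bars, n = 3 mice per group. Filled red points have an adjusted p under 0.05. All points but Ugt2b38 and Sult1a1 lie left of 0, and the Ugt1a genes lie nearer to 0 than Ugt2a3.

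Among the UGT genes the lowest fold was that of Ugt2a3 (chr5:87753997-87766220, minus strand), whose human counterpart conjugates bile acids. It was measured at 282, 226 and 233 CPM in the 3 Vehicle mice and at 134, 152 and 151 CPM in the 3 FGF19 mice. The lowest Vehicle mouse was well above the highest FGF19 mouse, and the mean was 41.0% lower (247 ± 30.8 against 146 ± 10.2 CPM, SD, n = 3 each). The log2 fold change was -0.76 ± 0.108 (SE), with an adjusted p of 0.00342 by edgeR's quasi-likelihood test. This was the one member that passed in all 13 alternative fits, with log2 fold changes between -0.82 and -0.65.

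Ugt2b5 (chr5:87553972-87569365, minus strand) belongs to the subfamily that conjugates steroids and bile acids, and was the most abundant member in Vehicle livers. Its levels were 894, 748 and 831 CPM in Vehicle mice and 599, 604 and 579 CPM in FGF19 mice. The groups were separate and the FGF19 mice lay close together. Its log2 fold change was -0.47 ± 0.0934 (SE), with an adjusted p of 0.0164 by edgeR's quasi-likelihood test. The call was lost in the fits without Vehicle replicate 1, Vehicle replicate 3, FGF19 replicate 1 or FGF19 replicate 2, where the adjusted p was at most 0.0794.

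Ugt2b36 (chr5:87494952-87521580, minus strand), of the same subfamily, was at 616, 592 and 593 CPM in Vehicle mice and at 469, 471 and 505 CPM in FGF19 mice. The mice of each group lay within a narrow range and the groups did not overlap. The log2 fold change of -0.32 (standard error 0.0820) was the smallest of the called members, and its adjusted p of 0.0476 (edgeR's quasi-likelihood test) was just under the threshold. It was lost when any library except FGF19 replicate 3 was left out, with an adjusted p of up to 0.197. Without the filter on low counts the adjusted p was 0.0549.

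Sult1d1 (chr5:87983675-87998031, minus strand), which sulfates catecholamines in the mouse, was at 119, 166 and 122 CPM in Vehicle mice. In FGF19 mice it was at 77.4, 75.0 and 99.2 CPM. Vehicle replicate 2 stood above the other Vehicle mice, and the groups did not overlap. FGF19 over Vehicle gave a log2 fold change of -0.69 ± 0.152 (SE), with an adjusted p of 0.0263 by edgeR's quasi-likelihood test. Without Vehicle replicate 2 it was -0.52 (adjusted p = 0.0620), and the call was also lost without Vehicle replicate 3, FGF19 replicate 1 or FGF19 replicate 2, with an adjusted p of up to 0.110.

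Sult1b1 (chr5:87942364-87967220, minus strand), which sulfates phenols and thyroid hormones, was at 25.4, 24.9 and 22.6 CPM in Vehicle mice and at 15.9, 13.9 and 17.4 CPM in FGF19 mice. The gap between the groups was larger than the range within either. Its log2 fold change was -0.63 ± 0.114 (SE), with an adjusted p of 0.0117 by edgeR's quasi-likelihood test, and it was lost only without FGF19 replicate 2 (adjusted p = 0.0551).

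Sult1a1 (chr7:133816384-133819871, minus strand), the main phenol sulfotransferase of liver, moved the other way. Its levels were 488, 448 and 445 CPM in Vehicle mice and 631, 648 and 591 CPM in FGF19 mice. Every FGF19 mouse was above every Vehicle mouse, and the mean rose from 460 ± 23.8 to 624 ± 29.2 CPM (SD, n = 3 each). The log2 fold change was 0.44 ± 0.0867 (SE), with an adjusted p of 0.0164 by edgeR's quasi-likelihood test. The call was lost without Vehicle replicate 2, Vehicle replicate 3, FGF19 replicate 1 or FGF19 replicate 2, where the adjusted p reached 0.0953.

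**Figure D2:**
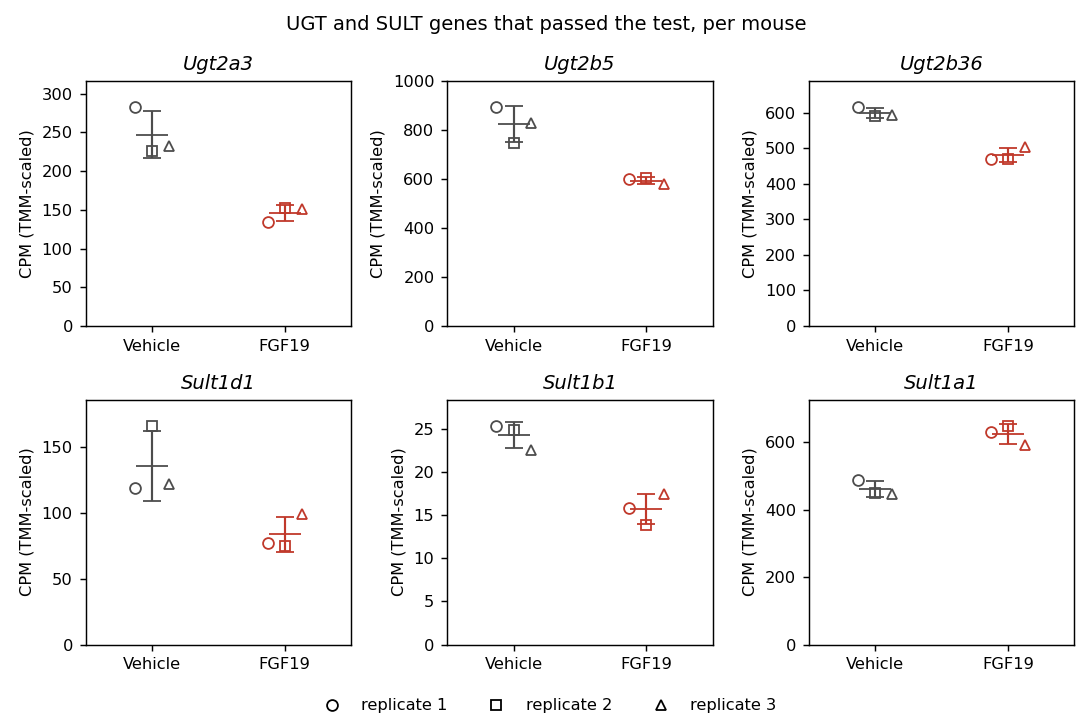
Level in CPM of the 6 members with an adjusted p under 0.05, in each of the 3 Vehicle and 3 FGF19 mice, with the mean (horizontal line) and SD (bars). Replicate numbers set the symbols and do not pair the mice. The groups are separate in all 6 panels, and Sult1a1 alone is higher in FGF19 mice.

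The opposite directions of the SULT genes changed the make-up of their reads. Sult1a1 held 75.9%, 68.5% and 74.1% of all SULT reads in the Vehicle mice and 86.0%, 86.6% and 82.0% in the FGF19 mice. Per read of Sult1d1 there were 4.10, 2.70 and 3.65 reads of Sult1a1 in Vehicle mice and 8.15, 8.64 and 5.96 in FGF19 mice. Summed over the 18 SULT genes, the level was 632 ± 27.7 CPM in Vehicle and 734 ± 13.5 CPM in FGF19 mice (SD, n = 3), and without Sult1a1 it was 172 ± 29.1 and 111 ± 16.6 CPM. The summed level of the 20 UGT genes was 3420 ± 231 CPM in Vehicle and 2626 ± 69.5 CPM in FGF19 mice, 23.2% lower. None of these 3 sums overlapped between the groups, and sums over the members were described without a test.

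As counted, the families made up the UGT sum unequally. Reads in the exons that the Ugt1a genes share were left out, which lowers the Ugt1a sum and raises the shares of the other families. The 7 Ugt2b genes held 70.5% to 73.4% of the UGT reads in Vehicle mice and 69.9% to 71.0% in FGF19 mice, and their sum was 2471 ± 216 against 1853 ± 64.3 CPM, 25.0% lower and without overlap. The 2 Ugt3a genes together were at 395 ± 34.4 against 347 ± 15.0 CPM, also without overlap. The 8 Ugt1a genes together were at 307 ± 23.8 CPM in Vehicle and 281 ± 22.5 CPM in FGF19 mice, and here the groups overlapped.

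Of the 5 Ugt1a genes tested, 0 passed in edgeR, DESeq2, the likelihood ratio test or limma-voom, and 0 had an unadjusted p under 0.05. Ugt1a1 (chr1:90108534-90116577, plus strand) was at 186, 163 and 194 CPM in Vehicle mice and at 174, 181 and 156 CPM in FGF19 mice, with a log2 fold change of -0.09 ± 0.0984 (SE) and an adjusted p of 0.663 by edgeR's quasi-likelihood test. The mice of both groups were interleaved. Ugt1a6a and Ugt1a6b, near-copies that conjugate small planar phenols, had log2 fold changes of -0.11 and -0.17. Only Ugt1a6b, at 38.5 to 41.2 CPM in Vehicle and 33.2 to 38.0 CPM in FGF19 mice, did not overlap between the groups (adjusted p = 0.304 by edgeR). Ugt1a6b had 1.14 to 1.24 reads per read of Ugt1a6a in Vehicle mice and 1.11 to 1.18 in FGF19 mice. Ugt1a9, which conjugates bulky phenols, was at 31.2 to 49.4 CPM in Vehicle and 25.9 to 39.2 CPM in FGF19 mice, and Ugt1a5 at 6.25 to 16.4 and 6.43 to 12.1 CPM. Their log2 fold changes of -0.24 and -0.32 had wide errors, and their groups overlapped. With 1 library left out they ran from -0.40 to -0.07 for Ugt1a9 and from -0.62 to -0.014 for Ugt1a5.

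Of the Ugt2b genes that did not pass the test, 3 were separate between the groups. Ugt2b34 was at 348 to 525 CPM in Vehicle and 252 to 341 CPM in FGF19 mice (log2 fold change -0.51, adjusted p = 0.0913 by edgeR's quasi-likelihood test). Ugt2b35 was at 172 to 277 CPM and 138 to 169 CPM (-0.50, adjusted p = 0.0954), and Ugt2b1 at 350 to 434 CPM and 294 to 326 CPM (-0.32, adjusted p = 0.0919). These fold changes were of the size seen in Ugt2b5 and Ugt2b36, while the Vehicle mice spread more widely relative to their mean. Ugt2b34 and Ugt2b35 passed under DESeq2 (adjusted p = 0.0254 and 0.0296), under the likelihood ratio test (0.0388 and 0.0419) and without Vehicle replicate 2 (0.0455 and 0.0352). Without Vehicle replicate 1 the log2 fold change of Ugt2b34 was -0.34 (0.245), and without Vehicle replicate 3 that of Ugt2b35 was -0.30 (0.299). With them 7 members were lower under DESeq2, where 4.13% of all genes tested were, and 7 under the likelihood ratio test, where 4.61% were.

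The 2 other Ugt2b genes were low and varied between mice of a group. Ugt2b38 was at 3.57 to 12.9 CPM in Vehicle and 5.26 to 11.0 CPM in FGF19 mice, and Ugt2b37 at 1.29 to 4.40 and 0.977 to 3.12 CPM. Their log2 fold changes of 0.16 and -0.41 were within their standard errors of 0.451 and 0.467, and both signs turned when 1 library was left out.

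Ugt3a1 and Ugt3a2 lie next to each other on chromosome 15, and their human counterparts use other sugar donors than glucuronic acid. Ugt3a2 was at 318 to 378 CPM in Vehicle and 283 to 327 CPM in FGF19 mice, with a log2 fold change of -0.16 (adjusted p = 0.400 by edgeR's quasi-likelihood test). Ugt3a1 was at 52.6 to 61.0 CPM and 36.1 to 50.9 CPM, a difference of -0.37 (adjusted p = 0.115) with no overlap, from exons of which more than any other described member had copies elsewhere.

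The last 3 SULT genes were near the lower end of the described range. Sult5a1 was at 5.36 to 11.0 CPM in Vehicle and 5.49 to 7.97 CPM in FGF19 mice, Sult1c2 at 1.80 to 2.53 and 1.59 to 1.88 CPM, and Sult2a7, of the subfamily that sulfates steroids and bile acids, at 1.38 to 2.88 and 1.43 to 2.58 CPM. All 3 overlapped between the groups, with log2 fold changes of -0.08, -0.36 and -0.19. Over all 15 members that were not called, the lowest adjusted p was 0.0913 and the log2 fold changes ran from -0.51 to 0.16.

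**Figure D3:**
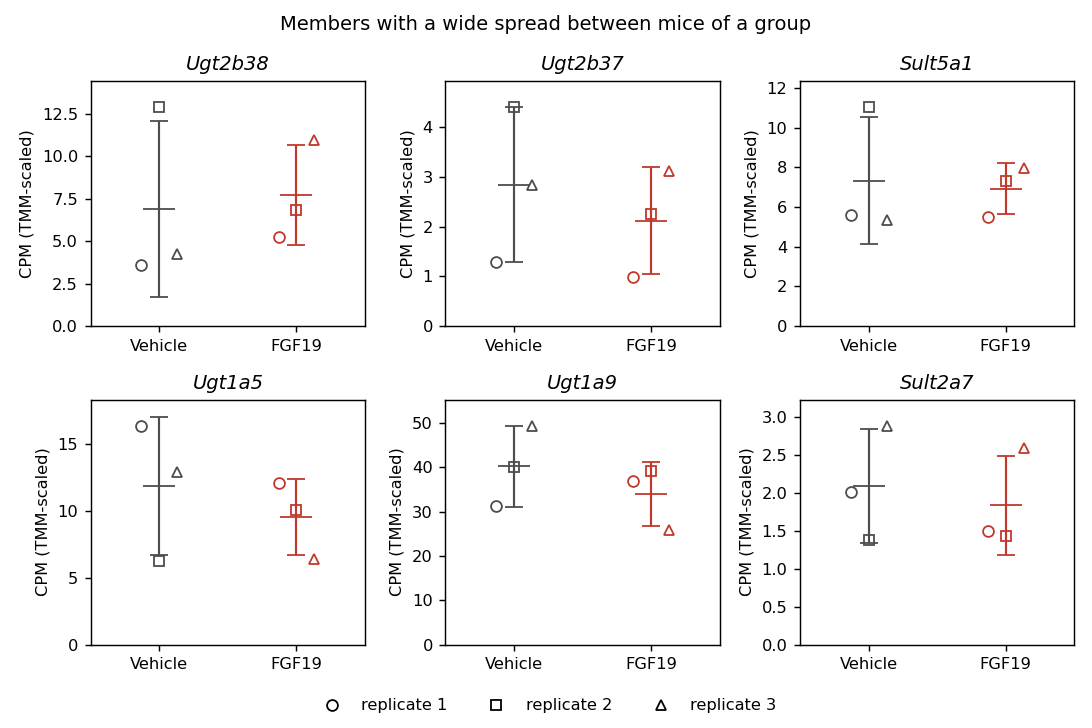
Level in CPM of 6 uncalled members with a wide spread, in each of the 3 Vehicle and 3 FGF19 mice, with the mean (horizontal line) and SD (bars). These panels were chosen after the values were seen. In each panel the Vehicle and FGF19 mice overlap, and Vehicle replicate 2 is the highest of its group for Ugt2b38, Ugt2b37 and Sult5a1.

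Another 17 members had a mean under 0.5 CPM and were not tested. For 7 of them (Ugt2a1, Ugt2a2, Sult1c1, Sult2a3, Sult2a4, Sult2a5 and Sult2a6) no read was counted in any library, which allows up to 3 counts or 0.131 to 0.158 CPM. This limit covers counting error only. Ugt2a1 and Ugt2a2 share exons with each other, so that their 0 rests on 802 of 2570 and 768 of 2536 exon positions. In Sult2a5, 29.6% of the windows had a copy elsewhere. All windows of Sult1c1 had a copy elsewhere in the genome, so that a read of that length from it would align to more than 1 place. The highest member under the threshold was Ugt1a10 with a mean of 0.403 CPM, followed by Sult1e1, the estrogen sulfotransferase, with 0.353 CPM, and the lowest member over it was Sult2a7 with 1.95 CPM. Sult1e1 had 3, 9 and 3 counts in Vehicle mice and 5, 7 and 18 counts in FGF19 mice. Sult2a1 had at most 1 count and Sult2a2 at most 2 counts in a library, Sult2b1 at most 4, Sult3a1 and Sult4a1 at most 2 each, Sult6b1 at most 1, Ugt1a2 at most 2 and Ugt1a7c at most 4.

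The 5 members that were called lower lie in 1 stretch of chromosome 5, which is described because they lie there. Between 87318795 and 88020636 (702 kb) the annotation lists 13 members and 0 other genes. Of the 10 that were tested, 9 had a log2 fold change below 0, 8 were lower without overlap between the groups (13.8% of all genes tested) and the median log2 fold change was -0.488. Of the tested members elsewhere, Sult1a1 was the one that passed. The nearest tested genes outside did not pass: Uba6 had a log2 fold change of 0.46 (adjusted p = 0.438 by edgeR's quasi-likelihood test) and Ythdc1 of -0.22 (0.195) on one side, and Igj of -0.90 (0.327) and Utp3 of -0.04 (0.810) on the other. Of these 4 genes, Ythdc1 was lower in every FGF19 mouse than in every Vehicle mouse (mean 38.5 CPM in Vehicle and 33.0 CPM in FGF19 mice). Whether members inside and outside the stretch differ was not tested.

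**Figure D4:**
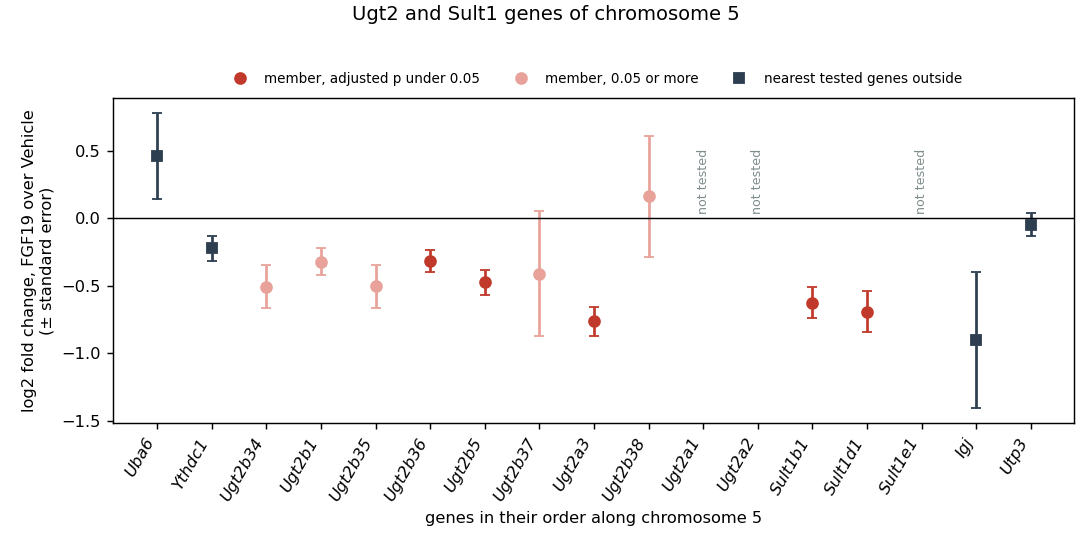
Log2 fold change of FGF19 over Vehicle, with the standard error as bars, for the members of the chromosome 5 stretch in genomic order and for the 2 nearest tested genes on either side, n = 3 mice per group. Of the 10 members tested, Ugt2b38 alone lies above 0. Ugt2a1, Ugt2a2 and Sult1e1 were too low to be tested.

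The 200 bases before the first annotated base of genes that moved are shown for the 2 Ugt2b genes that were called lower, for Ugt2a3 and Sult1d1, and for Sult1a1, which was higher. Motifs were searched on both strands in this window, and matches are in capitals. These were the nuclear receptor half-site AGGTCA, the STAT motif TTCNNNGAA, the C/EBP motif TTGNNNCAA, the AHR core GCGTG and the AP-1 motif TGAGTCA. The sequences are 5′ to 3′ on the minus strand of mm9, at chr5:87521581-87521780 (Ugt2b36), chr5:87569366-87569565 (Ugt2b5), chr5:87766221-87766420 (Ugt2a3), chr5:87998032-87998231 (Sult1d1) and chr7:133819872-133820071 (Sult1a1).
Ugt2b36: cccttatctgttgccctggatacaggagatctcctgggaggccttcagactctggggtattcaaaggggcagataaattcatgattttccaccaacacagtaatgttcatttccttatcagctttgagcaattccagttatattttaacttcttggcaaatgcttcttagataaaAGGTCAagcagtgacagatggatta
Ugt2b5: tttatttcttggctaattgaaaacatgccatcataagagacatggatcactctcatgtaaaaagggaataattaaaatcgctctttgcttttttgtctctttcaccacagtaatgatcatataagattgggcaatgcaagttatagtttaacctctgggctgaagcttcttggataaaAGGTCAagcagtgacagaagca
Ugt2a3: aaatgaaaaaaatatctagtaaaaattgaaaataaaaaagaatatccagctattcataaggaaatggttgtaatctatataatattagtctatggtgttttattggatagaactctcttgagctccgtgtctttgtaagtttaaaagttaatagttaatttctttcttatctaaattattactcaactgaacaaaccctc
Sult1d1: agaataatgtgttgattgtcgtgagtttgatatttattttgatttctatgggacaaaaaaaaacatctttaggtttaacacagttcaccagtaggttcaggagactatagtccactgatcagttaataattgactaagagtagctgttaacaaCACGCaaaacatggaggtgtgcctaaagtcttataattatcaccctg
Sult1a1: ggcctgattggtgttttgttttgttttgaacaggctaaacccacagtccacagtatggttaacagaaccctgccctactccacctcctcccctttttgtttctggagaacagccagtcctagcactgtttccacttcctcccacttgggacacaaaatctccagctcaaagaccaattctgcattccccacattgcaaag
Ugt2b36 and Ugt2b5 each hold 1 nuclear receptor half-site, which begins 25 and 22 bases before the first base. Sult1d1 holds 1 AHR core on the other strand, and the windows of Ugt2a3 and Sult1a1 hold none of these motifs. Sult1b1, not shown, holds 1 nuclear receptor half-site, 123 bases before its first base.

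AGGTCA was present in 5 of the 21 members (Ugt2b36, Ugt2b5, Ugt2b37, Ugt2b38 and Sult1b1) and in 8.18% of all windows of the 12559 genes tested. The C/EBP motif was found in 4 members (2.5% of all windows), the AHR core in 2 (40.1%), the STAT motif in 1 (4.79%) and the AP-1 motif in 1 (2.43%). Members of a subfamily share sequence by descent, so that these are not separate observations, and a match describes letters and no binding.

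Genes around these enzymes were read from lists in the same fit. Of the 3 genes that supply UDP-glucuronic acid, Ugp2, Ugdh and Slc35d1, 0 passed edgeR's test in either direction, 1 (Ugp2) had an unadjusted p under 0.05, and DESeq2, the likelihood ratio test and limma-voom called 0. A list around PAPS held 7 genes, not all of which make it: Papss1, Papss2, Slc26a1, Slc35b2, Slc35b3, Bpnt1 and Impad1. Of these, 1 was lower and 1 was higher, and these were the 2 PAPS synthases. Papss2 was at 193, 179 and 192 CPM in Vehicle mice and 125, 134 and 110 CPM in FGF19 mice (log2 fold change -0.61 ± 0.0954, SE, adjusted p = 0.00551 by edgeR's quasi-likelihood test). Papss1 was lower in level and went up, from 7.62, 8.11 and 7.89 CPM to 18.9, 18.4 and 12.3 CPM (1.07 ± 0.171, SE, adjusted p = 0.00631). Neither overlapped between the groups, and both passed in all 13 alternative fits.

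Of the 5 listed genes of deconjugation (Gusb, Arsa, Arsb, Sumf1 and Sumf2) 0 passed edgeR's test, 1 (Sumf1) had an unadjusted p under 0.05, and the other 3 tools called 0. Sts, also chosen for this list, is not among the genes of the annotation and was not measured. Of 12 tested transferases outside the UGT and SULT families, 1 was lower and 0 were higher by edgeR's quasi-likelihood test, with 5 at an unadjusted p under 0.05, and DESeq2 called 2 (Inmt and Nnmt, the latter higher). The 1 was Inmt, an N-methyltransferase, at 370, 215 and 304 CPM in Vehicle mice and 130, 164 and 119 CPM in FGF19 mice (log2 fold change -1.11 ± 0.190, SE, adjusted p = 0.00904 by edgeR's quasi-likelihood test). It too had separate groups.

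Of 13 genes of regulators known to act on UGT and SULT genes or on liver genes at large, 3 were lower and 1 was higher. Ahr, the receptor for aryl hydrocarbons, was at 43.3, 53.7 and 56.8 CPM in Vehicle mice and 20.4, 23.3 and 13.9 CPM in FGF19 mice (log2 fold change -1.42 ± 0.181, SE, adjusted p = 0.00197 by edgeR's quasi-likelihood test). Nr1h4, which encodes the bile acid receptor FXR, was at 163, 140 and 149 CPM and 84.9, 93.1 and 117 CPM (-0.61 ± 0.125, SE, adjusted p = 0.0185). Nr1i3, which encodes the xenobiotic receptor CAR, was at 169, 192 and 177 CPM and 103, 93.8 and 148 CPM (-0.64 ± 0.156, SE, adjusted p = 0.0381). In all 3 the FGF19 mice lay below the Vehicle mice.

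Nr0b2, which encodes SHP, a repressor that FXR induces, was at 13.9, 21.8 and 30.9 CPM in Vehicle mice and 64.5, 54.5 and 54.8 CPM in FGF19 mice (log2 fold change 1.38 ± 0.232, SE, adjusted p = 0.00823 by edgeR's quasi-likelihood test). The calls of Ahr and Nr0b2 held in all 13 alternative fits. That of Nr1h4 was lost without Vehicle replicate 1, Vehicle replicate 3, FGF19 replicate 1 or FGF19 replicate 2 (adjusted p of up to 0.0864), and that of Nr1i3 without any library except FGF19 replicate 3 (up to 0.139). The regulators Nr1i2, Arnt, Hnf4a, Rxra, Ppara, Nfe2l2, Esr1, Stat5b and Nr3c1 did not pass.

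**Figure D5:**
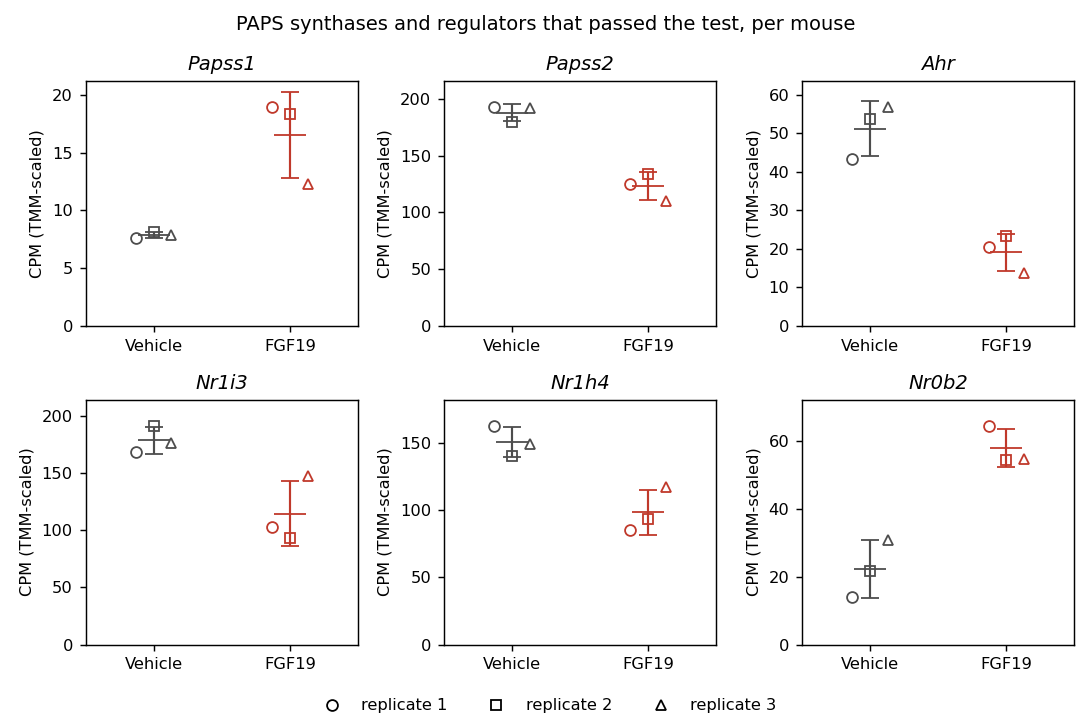
Level in CPM of the 2 PAPS synthases and the 4 regulators with an adjusted p under 0.05, in each of the 3 Vehicle and 3 FGF19 mice, with the mean (horizontal line) and SD (bars). Papss1 and Nr0b2 are higher and the other 4 lower in FGF19 mice, with no overlap in any panel.

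Total counts were 18994654 to 22920056 per library, and TMM factors were 0.964 to 1.03. Several UGT and SULT genes of mouse liver are known to differ between the sexes, so the sex-biased genes that are no members were read as well. Of 9 male-biased genes, 0 passed in edgeR's quasi-likelihood test and limma-voom, 4 had an unadjusted p under 0.05, and 3 passed in DESeq2 and 2 in the likelihood ratio test. Cyp7b1 (log2 fold change 0.61) was higher and Cyp4a12a (-0.52) lower in both tools, and Slco1a1 (-0.62) was lower in DESeq2. The 9 genes summed to 11550 to 18040 CPM in Vehicle and 7849 to 15870 CPM in FGF19 mice, of which Mup20, whose groups overlapped, held 7869 to 13960 CPM and 5562 to 12290 CPM. Of 8 female-biased genes, 1, Cux2, was high enough to be tested and did not pass (log2 fold change -1.83, adjusted p = 0.225 by edgeR). Vehicle replicate 2 and FGF19 replicate 3 were each the highest of their group in 4 of the 9 male-biased genes and in 5 of the 21 members (23.8%, Ugt3a2, Ugt2b37, Ugt2b38, Sult1d1 and Sult5a1), where 18.6% of all genes tested had this pattern. The same mice were the lowest of their groups in 6 members (28.6%, Ugt1a5, Ugt1a1, Sult1c2, Ugt2b34, Ugt2b35 and Ugt2b5), against 18.1% of all genes tested. These libraries were chosen after the values were seen. The part of such differences in the results was not tested.

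The hepatocyte markers Alb, Apoa1, Ttr, Tat and Cps1 were high in every library (summed level 92130 to 96620 CPM in Vehicle and 85190 to 96040 CPM in FGF19 mice), and 0 of the 5 passed in edgeR or DESeq2, with 2 at an unadjusted p under 0.05. Marker sums of the other cell types were 12.6 to 21.5 against 13.8 to 20.1 CPM for cholangiocytes, 129 to 157 against 134 to 156 CPM for Kupffer cells, 195 to 212 against 188 to 203 CPM for endothelial cells and 211 to 290 against 194 to 240 CPM for stellate cells. By edgeR's quasi-likelihood test, Marco of the Kupffer list was higher and Colec11 of the stellate list was lower. The likelihood ratio test also called the endothelial Clec4g and the stellate Reln lower, and DESeq2 the former. The neutrophil sum was 0.334 to 1.44 CPM in Vehicle and 2.51 to 4.04 CPM in FGF19 mice, with S100a9 higher by edgeR's quasi-likelihood test, a call lost without Vehicle replicate 1, Vehicle replicate 2, FGF19 replicate 1 or FGF19 replicate 2 (adjusted p of up to 0.0939). Its part in the results was not tested. The red cell sum, from Alas2 alone, was 57.2 to 78.6 against 43.6 to 57.5 CPM, with Hbb-b1 and Hba-a1 listed at 0, and DESeq2 and the likelihood ratio test called Alas2 lower. The 0 of these 2 globin genes need not mean absence. Reads aligned to several places were not counted, and copies of these genes were not examined. The enterocyte sum was 75.0 to 99.5 against 88.1 to 90.5 CPM, nearly all from Fabp2, which liver also expresses, with Cdx2 at 0. Pancreatic acinar markers summed to 0 against 0 to 0.230 CPM, with Cela3b, Cel and Ctrb1 at 0, and kidney tubule markers to 0 to 0.318 against 0.322 to 0.679 CPM, with Umod at 0.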

How the data were processed

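The authors sequenced liver RNA as paired-end reads. The submitters' processing notes name bcl2fastq 2.17.1.14, Trimmomatic 0.36, FastQC 0.11.5, STAR 2.5.3a and mm9, and the methods and the reporting summary name other versions of STAR. Per the file headers, the deposited counts are raw reads per gene on exons from featureCounts 1.5.2, without strand, with mates counted as separate reads and with default settings, which leave out reads placed in several genes or at several loci. The authors' table of their own comparison (fold changes, mean log CPM, p-values and FDR) was not used.

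Counts were fitted in R 4.3.3 with edgeR 4.0.16 (filterByExpr by group, TMM, quasi-likelihood test without covariates, Benjamini-Hochberg adjustment). The filter left 12559 of 23284 genes, and the common dispersion was 0.0163. The scripts were tested on simulated data. CPM are TMM-scaled, except the 0.5 CPM mean that selects members, which uses total counts. Exact copies of 100-base exon windows, motifs and junctions were read from the mm9 genome and its GENCODE annotation. Neighbouring genes that overlap cannot be told apart without strand.

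The members and gene lists were chosen with earlier results of these data known. Values in every library were given for members that passed a threshold and for the 3 highest UGT and 3 highest SULT genes per kilobase, ranges for the others, and values of other pathway genes where the adjusted p was under 0.05. Groups came from the sample labels, and replicate numbers were not used to pair mice. Alternatives were no TMM scaling, DESeq2 1.42.0, the likelihood ratio test, limma-voom (limma 3.58.1), no filter, at least 1 CPM in every library, a replicate block and each library left out. The values of some genes are not reported here.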

Additional observations from a re-analysis of the deposited data

How the results depend on the processing

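With 3 mice per group the calls depended on single libraries. Leaving out 1 library at a time, between 1 and 5 members were lower and between 0 and 1 were higher at an adjusted p under 0.05 by edgeR's quasi-likelihood test (1 to 2 higher at an unadjusted p under 0.05). Among the UDP-glucuronic acid, PAPS, deconjugation and regulator genes between 2 and 7 were lower at the adjusted threshold. The shares of all genes called in these fits are not given, so that these counts do not show how the members stood beside other genes. The fewest members were called without FGF19 replicate 2, when Ugt2a3 alone passed. The number lower at p under 0.01 was 8 under DESeq2, 8 under the likelihood ratio test and 9 without the filter on low counts, against 5, where 5.58%, 5.78% and 4.33% of all genes tested were, against 4.98%. The log2 fold change changed sign in some of the fits that left out a library for Ugt2b38 (-0.17 to 0.97), Ugt2b37 (-0.79 to 0.0474), Sult5a1 (-0.26 to 0.34) and Sult2a7 (-0.52 to 0.11), all of them low and uncalled. The cause was not tested. No TMM scaling, limma-voom and the stricter filter kept the same 6 calls.

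The labels give both groups the same replicate numbers. Deviations of same-numbered mice from their group means correlated at -0.06, -0.26 and -0.23, and no mouse correlated best with its own number, so that the numbers were not read as a pairing. With the replicate block, 3 members were lower (Ugt2a3, Sult1b1 and Sult1d1) and 0 were higher, against 1.31% and 2.95% of all genes tested, and at an unadjusted p under 0.05 there were 9 and 1, against 9.02% and 9.66%. At this depth a count of 0 allows up to 0.131 to 0.158 CPM.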
